A study of Mus musculus with 6 samples.

Results

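Oxidative phosphorylation subunits are the proteins that build the 5 enzyme complexes of the mitochondrial inner membrane. Complex I oxidises NADH and complex II oxidises succinate, complex III passes the electrons on to cytochrome c, and complex IV passes them to oxygen. Complexes I, III and IV pump protons, and the ATP synthase, also called complex V, uses the proton gradient to make ATP. Most subunits are encoded in the nucleus, and a small number are encoded by mitochondrial DNA. Vascular smooth muscle cells make ATP by both glycolysis and oxidative phosphorylation.

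The genes were taken by symbol: Nduf followed by a, b, c, s or v and a number, Sdha to Sdhd, the Uqcr genes, the nuclear Cox4 to Cox8 genes and the Atp5 genes. This set was chosen with earlier results of these data known, so the list as a whole was not tested. The rule found 79 of the 18194 genes measured, from 160 of the 45101 probe sets of the array, on 19 chromosomes. By symbol, 34 of them belonged to complex I, 4 to complex II, 8 to complex III, 16 to complex IV and 17 to the ATP synthase. Ndufa4 counts here with complex I, although its protein is now placed in complex IV. A further 9 probe sets that name such a gene together with another gene were not used, and Cox7b, Ndufa11 and Ndufs6 were not analysed here.

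RNA came from mouse carotid arteries, 14 days after an injury made with a wire in both genotypes. The IRF4 KO group had 3 arrays from global knockout mice, which lack the transcription factor IRF4 in every tissue and not only in the vessel. The WT group had 3 arrays from wild type mice. Each array held 400 ng of RNA from 3 to 5 pooled vessels, so an array stands for a pool and not for 1 animal. The sources used here do not give the age, sex or strain of the mice or the deleted stretch of the gene. Uninjured arteries were not analysed here.

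Irf4 itself did not check the labels. Its brightest probe set read 3.27, 3.75 and 3.70 in the IRF4 KO arrays and 3.90, 3.64 and 3.38 in the WT arrays, in log2 intensity, the unit of all levels below. These values overlapped and lay below 4.89, the median level over all genes. The change was -0.07 (SE 0.22) with a limma adjusted p of 0.999. Where the probe set lies relative to the deletion was not known.

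The arrays differed in ways that the genotypes do not explain. IRF4 KO 1 and WT 3 had spike-in controls, RNAs added to the samples during labelling, at 5.14 and 4.93, while the other 4 arrays lay between 7.35 and 9.26. The same pair stood apart in 15 macrophage markers, whose mean deviation from the average of the 6 arrays was 2.48 in IRF4 KO 1 and 1.54 in WT 3, against -1.37 to -0.49 in the other 4. In 15 cartilage markers it was 2.44 and 2.21, against -1.34 to -0.99. All 15 contractile smooth muscle markers lay above the median gene level, and 20 of 23 skeletal and heart muscle markers and 6 of 8 brown fat markers lay below it. Of the contractile markers 8 were lower in IRF4 KO and 7 higher, and Acta2, Smtn and Tagln were wholly above WT, against 2.37% of all genes, with changes of 1.14, 1.09 and 1.08 (unadjusted p under 0.05, against 0.407% of all genes called higher, limma adjusted p 0.252 each). Endothelial markers were higher in IRF4 KO for 11 of 13 (median 0.23) and peripheral nerve markers for 6 of 7 (median 0.16), where 9048 of all 18194 genes were. Medians of the complexes are therefore given with and without IRF4 KO 1 and WT 3.

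The 5′ regions of the genes frame the measurements, since nuclear subunit genes are known for binding sites of NRF1, GABP and YY1. RefSeq windows of 300 bases, from 250 before to 50 after a transcript's start on build GRCm38.p6, were matched for 65 of the 79 genes, as 70 windows. The letters GCGCANGCG, typical of NRF1, were found on either strand in 19 of them (27.1%), against 6.25% of all 32851 windows. The letters of GABP and other ETS factors (CCGGAAG) were in 17 (24.3%, against 8.86%), and those of YY1 (AAGATGGC) in 9 (12.9%, against 2.75%). The letters of ERR (TCAAGGTCA) were in 2 (2.86%, against 0.42%), those of SP1 (GGGCGG) in 28 (40.0%, against 35.7%) and those of a TATA box (TATAAA) in 9 (12.9%, against 13.6%). A GABP and an SP1 match overlapped in 1 window, and no other pair did. Complex I held 6 of the 9 YY1 matches in 33 windows, and the ATP synthase held the other 3 in 18 windows. Of the 19 windows with NRF1 letters, complex I and the ATP synthase held 7 each. Complex II had 2 in 3 windows, complex III 2 in 5 and complex IV 1 in 11.

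The windows of 6 genes are shown, with motif matches in capitals. They are those of Ndufa5, Ndufs7, Uqcr11 and Atp5h, which are among the genes with the smallest p in their complexes, and of Cox7a2 and Cox7a1, an isoform pair of which the first is widely expressed and the second is typical of muscle. These matches are descriptions of letters and do not show binding. The match in Ndufa5 (chr6:24527477-24527776, minus strand, the first of 2 windows) is to NRF1 and then to SP1. Ndufs7 (chr10:80249199-80249498, plus strand) matches TATA and then YY1. Uqcr11 (chr10:80406772-80407071, minus strand) matches GABP and then NRF1 on the other strand. Atp5h (chr11:115419870-115420169, minus strand) matches NRF1 and then GABP on the other strand. Cox7a2 (chr9:79759804-79760103, minus strand) matches SP1, and Cox7a1 (chr7:30183921-30184220, plus strand) matches none of the 6.
Ndufa5: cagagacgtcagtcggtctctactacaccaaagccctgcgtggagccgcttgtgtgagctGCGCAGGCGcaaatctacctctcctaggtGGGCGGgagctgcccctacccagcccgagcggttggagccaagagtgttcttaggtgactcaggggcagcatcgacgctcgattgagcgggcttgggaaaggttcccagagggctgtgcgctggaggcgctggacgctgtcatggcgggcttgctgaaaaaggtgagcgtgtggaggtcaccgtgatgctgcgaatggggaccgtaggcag
Ndufs7: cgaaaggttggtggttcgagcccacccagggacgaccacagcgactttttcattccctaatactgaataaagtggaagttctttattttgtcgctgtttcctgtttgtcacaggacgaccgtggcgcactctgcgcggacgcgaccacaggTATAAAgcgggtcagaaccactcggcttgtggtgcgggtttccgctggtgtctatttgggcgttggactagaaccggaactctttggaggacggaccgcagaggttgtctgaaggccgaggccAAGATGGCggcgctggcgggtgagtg
Uqcr11: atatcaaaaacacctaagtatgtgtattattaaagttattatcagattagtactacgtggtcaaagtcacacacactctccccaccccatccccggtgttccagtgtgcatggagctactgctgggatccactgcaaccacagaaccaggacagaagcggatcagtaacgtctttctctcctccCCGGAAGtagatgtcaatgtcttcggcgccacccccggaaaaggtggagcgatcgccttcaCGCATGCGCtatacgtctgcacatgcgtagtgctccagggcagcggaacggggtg
Atp5h: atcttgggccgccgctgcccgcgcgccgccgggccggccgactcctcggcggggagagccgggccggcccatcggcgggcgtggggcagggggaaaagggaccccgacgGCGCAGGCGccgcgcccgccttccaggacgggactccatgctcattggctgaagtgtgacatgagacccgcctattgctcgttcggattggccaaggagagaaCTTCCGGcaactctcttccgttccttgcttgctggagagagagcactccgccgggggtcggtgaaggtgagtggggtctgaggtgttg
Cox7a2: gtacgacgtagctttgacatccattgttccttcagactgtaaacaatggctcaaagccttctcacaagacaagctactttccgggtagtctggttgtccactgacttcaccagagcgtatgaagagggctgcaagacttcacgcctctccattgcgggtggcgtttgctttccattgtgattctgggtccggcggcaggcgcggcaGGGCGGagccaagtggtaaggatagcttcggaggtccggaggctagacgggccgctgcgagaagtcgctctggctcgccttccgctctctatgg
Cox7a1: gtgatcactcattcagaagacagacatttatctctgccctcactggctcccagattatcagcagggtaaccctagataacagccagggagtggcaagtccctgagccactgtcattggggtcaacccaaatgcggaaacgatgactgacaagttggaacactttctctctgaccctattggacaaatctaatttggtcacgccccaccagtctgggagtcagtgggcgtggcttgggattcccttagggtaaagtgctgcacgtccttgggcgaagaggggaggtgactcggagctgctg

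Most subunit mRNAs read lower in the IRF4 KO mean than in the WT mean, but no gene passed the test. The change, the IRF4 KO mean minus the WT mean in log2, was below 0 for 67 of the 79 genes (84.8%), against 50.3% of all genes. It was above 0 for 12. Its median was -0.25, against -0.002 over all genes, and it ranged from -1.05 (Cox7c) to 0.40 (Atp5b). Among genes above the median level in at least 1 genotype, 63 of 71 subunit genes were lower (88.7%), against 60.7% of 9353 genes. Fewer cells of a type and less RNA per cell cannot be told apart in such pooled tissue.

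At a limma adjusted p under 0.05, 0 of 79 were called, where 0% of all genes were, and the smallest adjusted p was 0.999. At an unadjusted p under 0.05, 2 genes were called, Cox7c and Ndufa5, both lower. That is 2.53% of the 79, against 1.49% of all genes called in either direction and 1.08% called lower. The 3 IRF4 KO arrays lay wholly below the 3 WT arrays for 1 gene, Cox7c (1.27%), against 3.31% of all genes. The standard error was between 0.17 and 0.33, so changes of moderate size could not be told from 0 with 3 arrays a group. The 95% interval of the change lay within -1 and 1 for 68 of the 79 genes.

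In their brightest probe sets, most of these genes shared the height of 2 WT arrays. WT 1 and WT 2 both lay above the other 4 arrays in 46 of the 79 genes (58.2%), against 6.23% of all genes. The median deviation of the 79 genes from their own mean over the 6 arrays was -0.07, -0.06 and -0.19 in IRF4 KO 1, 2 and 3, and 0.26, 0.31 and -0.26 in WT 1, 2 and 3. WT 3 thus lay below every IRF4 KO array by this median. The height of WT 1 was not general. Its median deviation was -0.15 in complex II. In the 52 probe sets above the median gene level with names ending in a plain _at, it was 0.08, near 0.07 in IRF4 KO 1. The highest array was WT 1 for 33 genes and WT 2 for 32. The lowest was IRF4 KO 3 for 32 genes and WT 3 for 30. The IRF4 KO mean had a median difference of -0.35 from WT 1 and -0.42 from WT 2, but of 0.12 from WT 3.

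**Figure D1:**
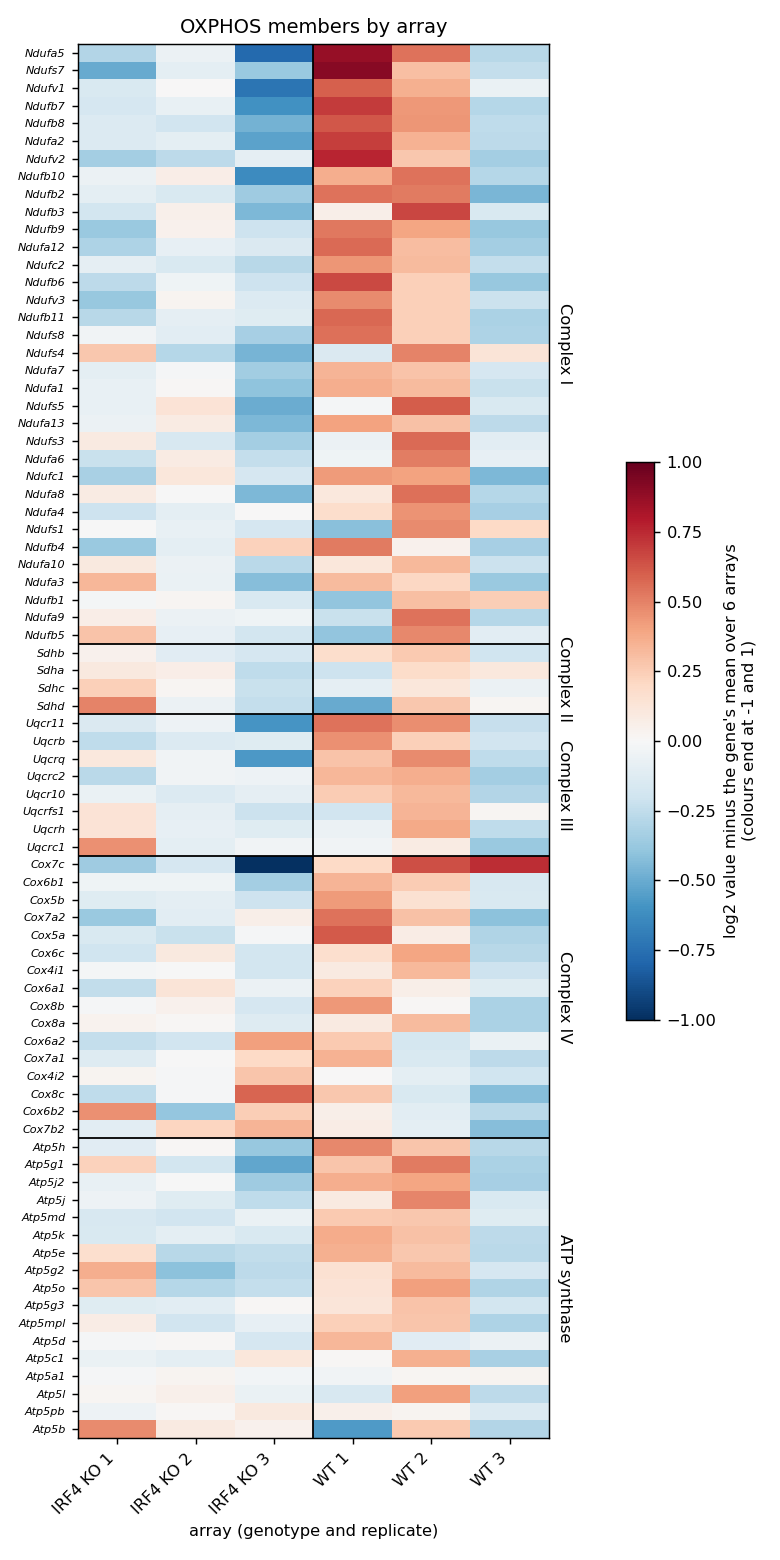
Each row is 1 of the 79 genes and each column 1 array; colour gives the log2 value minus the gene's mean over the 6 arrays, with colours ending at -1 and 1. Within each complex genes run in the order of their change; WT 1 and WT 2 are red in most rows, and both lie above the other 4 arrays in 46 genes.

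Without IRF4 KO 1 and WT 3 the difference was larger. Over the other 4 arrays, 71 of the 79 genes were lower in IRF4 KO, against 49.9% of all genes, with a median of -0.44. Between IRF4 KO 1 and WT 3 alone, 17 of 79 were lower, against 49.4% of all genes, with a median of 0.13. With the 4 arrays 17 genes had an unadjusted p under 0.05, all lower (21.5%, against 2.84% of all genes), and 0 passed adjustment, against 0.0275% of all genes (smallest adjusted p 0.539). The IRF4 KO arrays lay wholly below the WT arrays for 53 genes, against 15.7% of all genes. These must include the 46 genes in which WT 1 and WT 2 lay above the other 4 arrays. With all 6 arrays and spike-in level as a block, 6 genes had an unadjusted p under 0.05, all lower, against 2.4% of all genes. The test of the difference between these changes, an interaction of genotype with spike-in level, called 0 of 79 genes after limma adjustment, against 0.0824% of all genes, and 6 before it, against 3.33%. It had 2 residual degrees of freedom.

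WT 3 alone had a similar weight. Without it, 22 genes had an unadjusted p under 0.05, all lower (against 1.39% of all genes), and the IRF4 KO arrays lay wholly below WT for 47, against 8.36%. These 47 must include the 46 genes in which WT 1 and WT 2 lay above the other 4 arrays. The count therefore adds little to that result. No gene passed adjustment, against 0% of all genes. Leaving out any other array gave 1 to 3 genes at an unadjusted p under 0.05. All of them were lower, except without WT replicate 2, where 1 was lower and 1 higher. The share of all genes called in those fits is not given here, so these counts are not read further. With each array weighted by its spread, 48 genes had an unadjusted p under 0.05, 47 of them lower, where 11.6% of all genes were called lower and 11.7% higher. After adjustment that fit called 0 of 79, against 0.374% of all genes. The 15 macrophage markers had a median difference of 0.78 between IRF4 KO 1 and WT 3 and of -0.70 over the remaining arrays, with 11 lower. Macrophage and cartilage marker levels, spike-in level and these 2 arrays moved together, and the part of each in the result was not tested, nor was that of the endothelial and nerve markers. WT 1 had the largest gap between 3′ and 5′ probe sets of beta-actin, a sign of RNA quality, at 3.12 against 1.43 to 2.12 in the other 5 arrays. The same gap for GAPDH was 3.35 in WT 1 and 3.36 in WT 3, against 1.52 to 2.24 in the other 4. With the beta-actin gap as a covariate the median change was -0.20, 67 of 79 genes were lower, against 51% of all genes, and 1 was called lower at an unadjusted p under 0.05, against 0.583%.

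**Figure D2:**
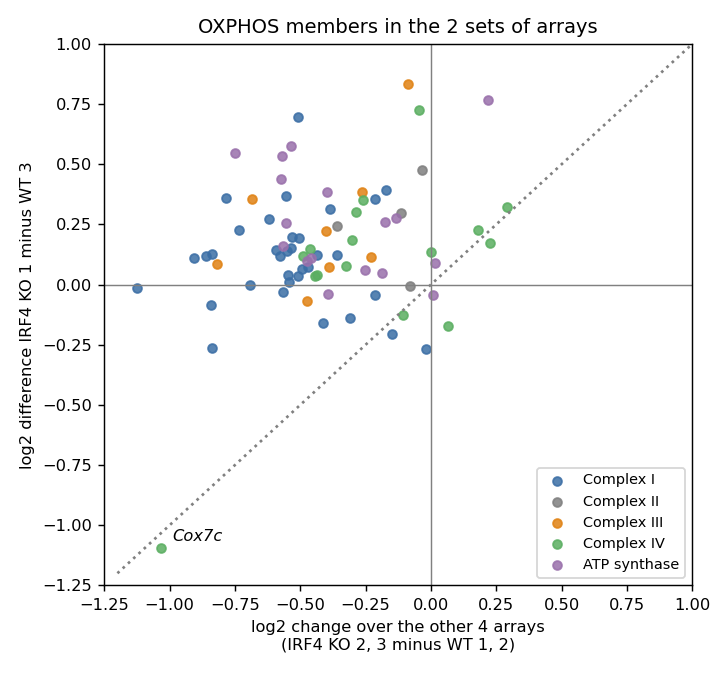
Each point is 1 of the 79 genes; the x axis gives the log2 change over IRF4 KO 2 and 3 against WT 1 and 2, the y axis the log2 difference of IRF4 KO 1 from WT 3, and the dotted line marks equal values. On the x axis 71 genes lie below 0, on the y axis 17 do, and Cox7c lies apart at -1.03 and -1.10.

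**Figure D3:**
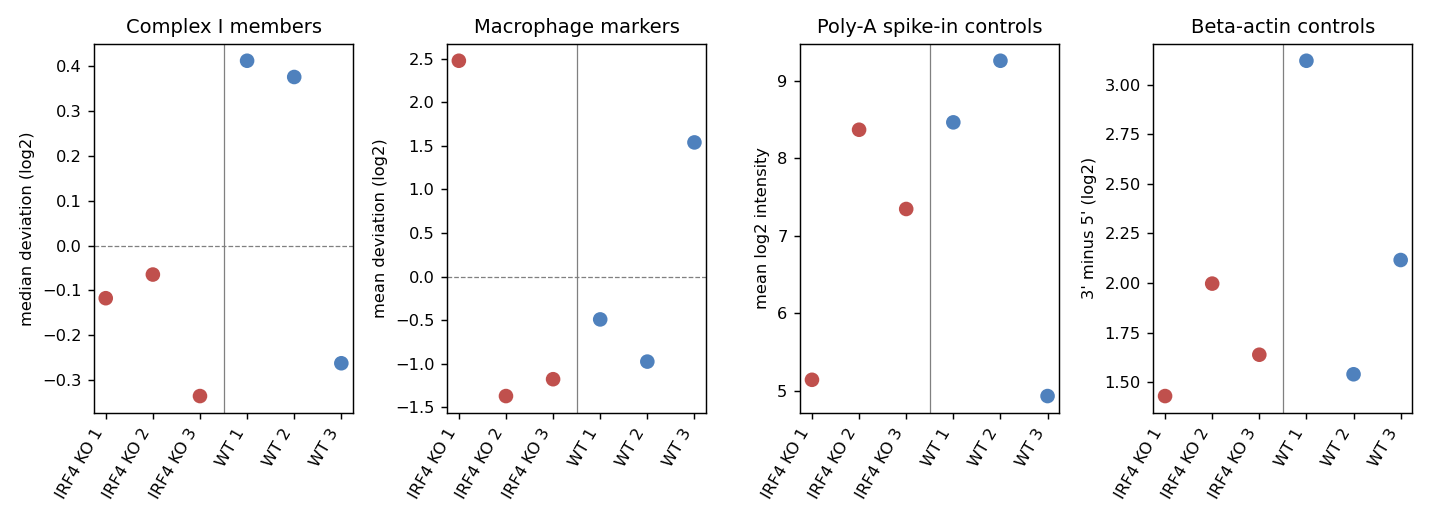
Each panel gives 1 value per array, IRF4 KO in red and WT in blue: the median log2 deviation of the 34 complex I genes, the mean log2 deviation of 15 macrophage markers, the mean log2 intensity of the spike-in controls and the log2 gap between 3′ and 5′ probe sets of beta-actin. Complex I is highest in WT 1 and WT 2, macrophage markers in IRF4 KO 1 and WT 3, and the beta-actin gap in WT 1.

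Complex I had the lowest median of the 5 complexes. Of its 34 genes 33 were lower in IRF4 KO and 1, Ndufb5, was higher, with a median of -0.32. The 9 Ndufs and Ndufv genes, named after the iron-sulfur and flavoprotein fractions, were all lower (median -0.32), and so were 24 of the 25 accessory Ndufa, Ndufb and Ndufc genes (median -0.31). The median deviations were -0.12, -0.06 and -0.34 in IRF4 KO 1, 2 and 3, and 0.41, 0.38 and -0.26 in WT 1, 2 and 3. WT 1 and WT 2 were both above the other 4 arrays in 24 of the 34 genes. Over IRF4 KO 2 and 3 against WT 1 and 2, all 34 were lower (median -0.54), and between IRF4 KO 1 and WT 3, 10 were (median 0.12).

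Ndufa5, an accessory subunit of the arm that faces the matrix, read 7.95, 8.18 and 7.47 in the IRF4 KO arrays and 9.11, 8.79 and 7.96 in the WT arrays. WT 3 lay between the IRF4 KO arrays, and WT 1 and WT 2 lay above all of them. The means were 7.86 ± 0.37 and 8.62 ± 0.59 (SD, n = 3 each), a change of -0.76 (SE 0.33, 95% interval -1.50 to -0.01), which is 0.593 of the WT level. Its limma p was 0.0483 before and 0.999 after adjustment. A second probe set also had WT 1 and WT 2 above the other arrays, with 7.62, 7.69 and 7.28 in IRF4 KO and 8.13, 8.49 and 7.57 in WT.

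Ndufv1, the subunit that binds NADH and FMN, read 8.61, 8.76 and 8.03 in IRF4 KO and 9.35, 9.12 and 8.69 in WT. WT 3 lay below IRF4 KO 2 and the groups overlapped there only. The means were 8.46 ± 0.39 and 9.05 ± 0.34, and the change was -0.59 (SE 0.27). Ndufs7, which carries the last iron-sulfur cluster before ubiquinone, read 8.77, 9.18 and 8.90 in IRF4 KO and 10.18, 9.58 and 9.04 in WT. Again WT 3 alone lay within the IRF4 KO values. The means were 8.95 ± 0.21 and 9.60 ± 0.57, and the change was -0.65 (SE 0.30). Their limma p-values were 0.0566 and 0.0601 before adjustment.

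In their brightest probe sets Ndufb8, Ndufb7 and Ndufv2 showed the same arrangement of arrays, with WT 1 and WT 2 at the top. Ndufb8 and Ndufb7, accessory subunits of the membrane arm, had changes of -0.54 (SE 0.26) and -0.57 (SE 0.29). Ndufv2, which carries an iron-sulfur cluster beside Ndufv1, had -0.46 (SE 0.28). The next brightest probe set of Ndufv2 had -0.04, with WT 1 the lowest array at 8.71, and another had -0.29. The arrangement in Ndufv2 thus depended on the probe set. Ndufa9 at -0.03 and Ndufb5 at 0.02 in its brightest probe set stood at the other end. Ndufs1, the largest complex I subunit, read 7.45, 7.38 and 7.29 in IRF4 KO and 7.04, 7.93 and 7.66 in WT, so that here WT 1 was the lowest array.

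**Figure D4:**
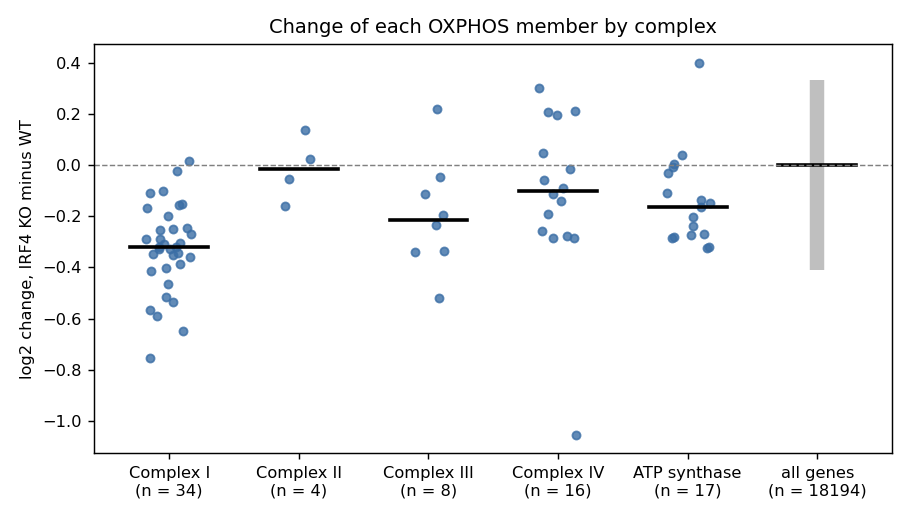
Each point is the log2 change of 1 gene, IRF4 KO minus WT, over all 6 arrays; black lines are medians, and the grey bar spans the 5th to 95th percentile of all 18194 genes. Complex I has a median of -0.32 with 33 of 34 genes below 0, and complex II has a median of -0.02.

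Complex II, succinate dehydrogenase, which is also an enzyme of the citric acid cycle, had 2 genes lower and 2 higher over the 6 arrays. Without IRF4 KO 1 and WT 3 all 4 were lower (median -0.10), and between these 2 arrays 1 was (median 0.27). Sdha, the flavoprotein that oxidises succinate, read 8.82, 8.79 and 8.47 in IRF4 KO and 8.52, 8.90 and 8.83 in WT (change -0.06, SE 0.20). Sdhb, the iron-sulfur subunit, read 8.69, 8.53 and 8.49 in IRF4 KO and 8.83, 8.91 and 8.45 in WT (change -0.16, SE 0.20). The genotypes overlapped in both. Sdhc, a membrane anchor, read 7.81, 7.59 and 7.35 in IRF4 KO and 7.48, 7.68 and 7.51 in WT (change 0.02, SE 0.20). Sdhd, the other anchor, read 8.49, 7.93 and 7.75 in IRF4 KO and 7.49, 8.26 and 8.01 in WT (change 0.14, SE 0.28). Here too the genotypes overlapped, and the median of the 4 was -0.02.

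In complex III 7 of 8 genes were lower in IRF4 KO, with a median of -0.21. Without IRF4 KO 1 and WT 3 all 8 were lower (median -0.40), and between these 2 arrays 1 was (median 0.17). Uqcr11, a small subunit, read 9.05, 9.15 and 8.61 in IRF4 KO and 9.74, 9.66 and 8.97 in WT. WT 1 and WT 2 were above all IRF4 KO arrays and WT 3 was among them. The change was -0.52 (SE 0.27), with a limma p of 0.0853 before adjustment. Uqcrb, which lies near the ubiquinone site, read 11.54, 11.66 and 11.68 in IRF4 KO and 12.25, 12.04 and 11.61 in WT (change -0.34, SE 0.22). Uqcrq, another small subunit, read 8.71, 8.57 and 8.03 in IRF4 KO and 8.89, 9.08 and 8.35 in WT (change -0.34, SE 0.27). In both, WT 3 lay within the IRF4 KO values. Uqcrc1, a core protein, was the exception, at 8.81, 8.26 and 8.32 in IRF4 KO and 8.32, 8.44 and 7.98 in WT (change 0.22, SE 0.23), with the groups overlapping.

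Complex IV was mixed, with 11 of 16 genes lower in IRF4 KO and 5 higher (median -0.10). Without IRF4 KO 1 and WT 3 the count was again 11 (median -0.27), and between these 2 arrays 3 were lower (median 0.14). Of the 16, 6 were at or below the median gene level, among them Cox7c, the only gene of the 79 whose groups did not overlap. Cox7c, a small subunit encoded in the nucleus, read 3.93, 4.12 and 3.23 in IRF4 KO and 4.48, 4.93 and 5.03 in WT. Every IRF4 KO array lay below every WT array, and WT 3 was here the highest of the 6. The means were 3.76 ± 0.47 and 4.81 ± 0.29 (SD, n = 3 each), a change of -1.05 (SE 0.28, 95% interval -1.69 to -0.42). That is 0.482 of the WT level in this probe set. The limma p was 0.00498 before and 0.999 after adjustment. IRF4 KO 1 differed from WT 3 by -1.10, and the remaining arrays gave -1.03. This probe set is of the _s_at kind, which can match more than 1 transcript. Its mean over the 6 arrays was 4.29, against 9.56 in Cox8a and 12.12 in Cox6a1. Whether it reads the main Cox7c mRNA was not tested. A second probe set was dimmer still, with 2.36, 2.18 and 1.86 in IRF4 KO and 2.30, 2.55 and 2.72 in WT, and there the groups overlapped.

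Cox5b, a subunit that binds zinc, read 10.71, 10.72 and 10.62 in IRF4 KO and 11.25, 10.97 and 10.67 in WT (change -0.28, SE 0.21). WT 3 lay within the IRF4 KO values. Cox7b2, a paralog of Cox7b, read 2.60, 2.93 and 3.06 in IRF4 KO and 2.79, 2.62 and 2.28 in WT (change 0.30, SE 0.22), all far below the median gene level.

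Several complex IV subunits come as isoforms of different tissues, and none of these had an unadjusted p under 0.05. The common forms of subunits 4, 6a, 6b, 7a and 8 had changes between -0.29 and -0.06, and their restricted forms between -0.09 and 0.21. Cox4i1, the common form of subunit 4, read 10.86, 10.88 and 10.69 in IRF4 KO and 10.97, 11.20 and 10.67 in WT (change -0.14). Cox4i2, the form known from lung, read 3.60, 3.56 and 3.84 in IRF4 KO and 3.57, 3.47 and 3.37 in WT (change 0.20). The genotypes overlapped in both.

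Cox6a1, the form of most tissues, read 11.88, 12.26 and 12.07 in IRF4 KO and 12.35, 12.18 and 12.01 in WT (change -0.11). Cox6a2, that of heart and skeletal muscle, read 4.73, 4.78 and 5.38 in IRF4 KO and 5.23, 4.80 and 4.90 in WT (change -0.01). In Cox6a1 WT 1 and IRF4 KO 2 were highest, in Cox6a2 IRF4 KO 3 and WT 1. Cox6b1 read 10.46, 10.45 and 10.15 in IRF4 KO and 10.84, 10.75 and 10.33 in WT (change -0.29). Cox6b2, known from testis, read 4.39, 3.54 and 4.18 in IRF4 KO and 3.99, 3.83 and 3.67 in WT (change 0.21). WT 1 and WT 2 were highest in Cox6b1, and the genotypes overlapped in both. Cox7a2 read 10.53, 10.80 and 10.97 in IRF4 KO and 11.44, 11.19 and 10.49 in WT (change -0.28). Cox7a1, its muscle counterpart, read 2.54, 2.66 and 2.87 in IRF4 KO and 3.01, 2.51 and 2.40 in WT (change 0.05). Cox7a2 was highest in WT 1 and WT 2 and lowest in WT 3, and Cox7a1 was highest in WT 1 and lowest in WT 3.

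Cox8a, the common form of subunit 8, read 9.60, 9.57 and 9.43 in IRF4 KO and 9.65, 9.88 and 9.25 in WT (change -0.06). Cox8b, known from muscle and brown fat, read 3.35, 3.41 and 3.20 in IRF4 KO and 3.80, 3.38 and 3.05 in WT (change -0.09). Cox8c, known from testis, read 6.35, 6.60 and 7.18 in IRF4 KO and 6.87, 6.45 and 6.18 in WT (change 0.21). The groups overlapped in all 3. Cox4i2, Cox6b2, Cox7a1 and Cox8b lay at or below the median gene level, so these changes are between dim signals. Most muscle and brown fat markers lay there too, and Cox8b is itself on the list of brown fat markers.

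In the ATP synthase 14 of 17 genes were lower in IRF4 KO and 3 higher, with a median of -0.16. Without IRF4 KO 1 and WT 3 the count was again 14 (median -0.40), and between these 2 arrays 2 were lower (median 0.26). The 5 genes of its catalytic F1 head, Atp5a1, Atp5b, Atp5c1, Atp5d and Atp5e, had a median of -0.03 with 4 lower, and the other 12 had a median of -0.23 with 10 lower. Atp5b, the catalytic beta subunit, had the highest change of all 79 genes. It read 10.16, 9.78 and 9.73 in IRF4 KO and 9.12, 9.96 and 9.40 in WT, with means of 9.89 ± 0.24 and 9.49 ± 0.42 (change 0.40, SE 0.26, limma p 0.157 before adjustment). WT 1 was its lowest array and WT 2 its second highest. It has 1 probe set, of the plain _at kind.

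Atp5a1, the alpha subunit beside it in the head, was nearly flat, at 10.03, 10.07 and 10.02 in IRF4 KO and 10.01, 10.07 and 10.08 in WT. Its range of 0.07 was the narrowest of the 79 genes. Other probe sets of Atp5a1 gave 0.30 and -0.36, so this flatness belongs to 1 probe set. Atp5h, subunit d of the peripheral stalk, read 10.31, 10.44 and 10.05 in IRF4 KO and 10.91, 10.71 and 10.15 in WT (change -0.32, SE 0.24). Atp5md, a small subunit linked to dimers of the enzyme, read 8.43, 8.40 and 8.53 in IRF4 KO and 8.85, 8.86 and 8.47 in WT (change -0.27, SE 0.19). In both, WT 1 and WT 2 were the 2 highest arrays and WT 3 lay among the IRF4 KO arrays.

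**Figure D5:**
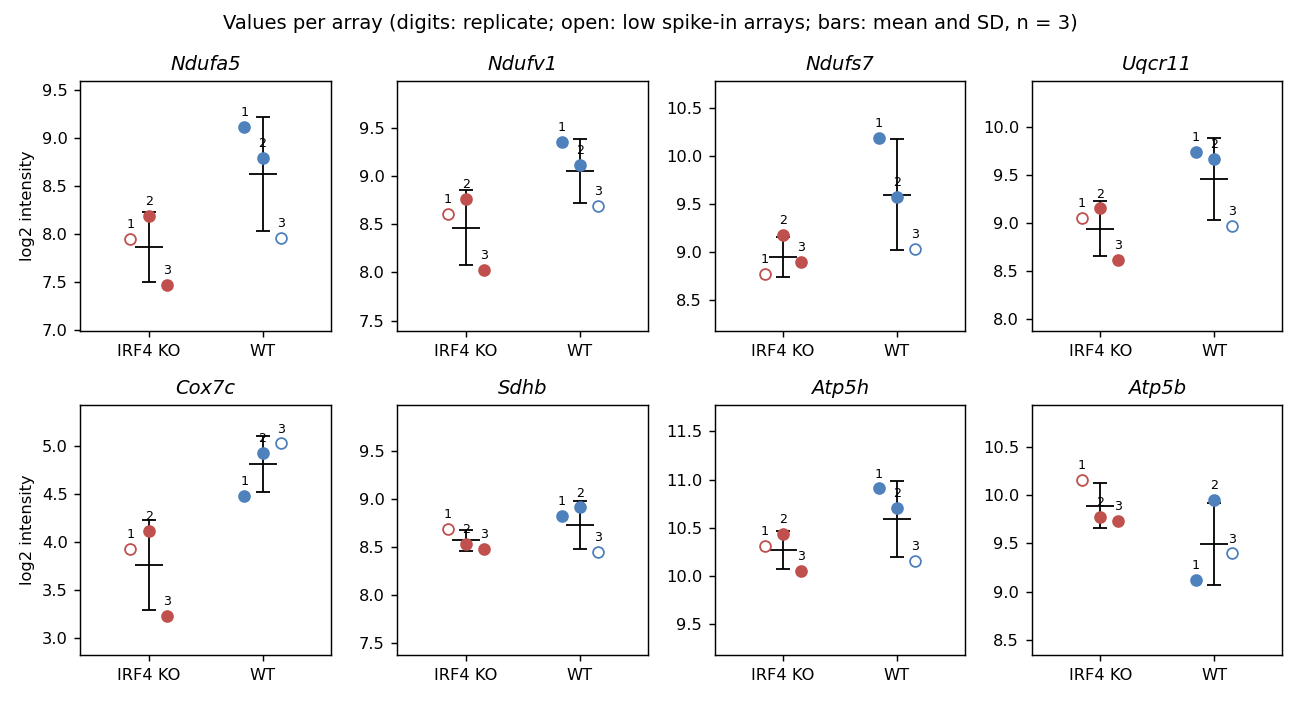
Each panel shows 1 gene, IRF4 KO on the left in red and WT on the right in blue, in log2 intensity; digits give the replicate, open points are IRF4 KO 1 and WT 3, and bars give the mean and SD (n = 3). WT 3 lies near the IRF4 KO arrays in Ndufa5, Ndufs7, Uqcr11 and Atp5h, Cox7c separates the groups, and Atp5b has its lowest value in WT 1.

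Most subunit genes with more than 1 probe set above the median gene level had the same direction in all of those sets. Dimmer probe sets, and genes with only 1 set above that level, do not enter this comparison. Of 128 probe sets of the subunit genes above the median gene level, 113 were lower in IRF4 KO and 15 higher (median -0.25). Of 38 genes with more than 1 such probe set, all were lower for 29, all higher for 3, and they disagreed for 6, with a largest gap of 0.66. The 52 whose names end in a plain _at, designed to be unique, had a median of -0.18 (44 lower), and the 76 others, which share probes among transcripts, had -0.28 (69 lower). In the plain ones WT 2 was high (0.43) and WT 1 was not (0.08, near 0.07 in IRF4 KO 1), while in the others WT 1 and WT 2 were both high (0.36 and 0.31). Taking the brightest plain set of each gene, 49 of 64 genes were lower, against 48% of all genes, and 0 were called lower at an unadjusted p under 0.05, against 0.844%. Ndufv1 had -0.59 and -0.54 in its other sets and -0.08 in its plain set. Not every gene had such a gap, as Ndufb7 had -0.57 in its other set and -0.58 in its plain set.

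Genes that work with the subunits were read from lists that name no subunit of the rule. Their counts of lower genes stand beside 50.3% of all genes and 60.7% of genes above the median level. Of 10 measured subunits or partners under other names, 8 were lower (median -0.19, and -0.35 without IRF4 KO 1 and WT 3) and 0 had an unadjusted p under 0.05, against 1.49% of all genes. Dmac2l alone lay wholly below WT (change -0.41), against 3.31% of all genes. Cyc1, cytochrome c1 of complex III, read 8.29, 8.50 and 8.21 in IRF4 KO and 8.92, 8.63 and 8.37 in WT (change -0.31). Cycs, cytochrome c, read 9.31, 9.42 and 9.38 in IRF4 KO and 9.98, 9.82 and 9.05 in WT (change -0.24), with WT 3 lowest. Ndufa4l2, the paralog of Ndufa4 known from hypoxia, had a change of 0.18 (SE 0.23). Atpif1, which inhibits the ATP synthase when it runs in reverse, had -0.58 (limma p 0.0816 before adjustment).

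Among 44 assembly factors, which help build the complexes, 30 were lower (68.2%, median -0.17, and -0.24 without IRF4 KO 1 and WT 3). Of the 44, 39 lay above the median level, where 60.7% of genes were lower. An unadjusted p under 0.05 was reached by 3, all lower, against 1.08% of all genes. Pet100, an assembly factor of complex IV, read 7.61, 7.22 and 6.39 in IRF4 KO and 8.29, 7.86 and 7.63 in WT (change -0.85, limma p 0.0313). Sdhaf3, which acts on Sdhb, read 4.97, 4.50 and 4.44 in IRF4 KO and 5.02, 5.43 and 5.08 in WT (change -0.54, limma p 0.0411). Surf1, also of complex IV, read 7.94, 7.90 and 7.57 in IRF4 KO and 8.37, 8.41 and 8.06 in WT (change -0.47, limma p 0.0449). In these 3 every IRF4 KO array lay below every WT array. Over the list 4 were wholly below WT and 1 wholly above, against 3.31% and 2.37% of all genes. None of the 3 passed adjustment, with adjusted p of 0.999 each.

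The large subunit of the mitochondrial ribosome, which translates the subunits encoded by mitochondrial DNA, also had most genes lower. Of its 47 proteins 43 were lower (91.5%, median -0.22). An unadjusted p under 0.05 was reached by 3, all lower (against 1.08% of all genes), and 4 lay wholly below WT (against 3.31%). Its median was -0.49 without IRF4 KO 1 and WT 3, and 0.25 between these 2 arrays. Its median deviations were 0.15, -0.10 and -0.41 in IRF4 KO 1, 2 and 3, and 0.10, 0.35 and -0.10 in WT 1, 2 and 3. WT 1 thus lay below IRF4 KO 1 in this list, unlike in the subunits. Of 16 enzymes of the citric acid cycle, 11 were lower (68.8%, median -0.15, and -0.19 without the 2 arrays). Of 15 of fatty acid oxidation, 10 were (66.7%, median -0.10, and -0.17 without them). In these lists 15 of the 16 and all 15 lay above the median level, where 60.7% of genes were lower. Of 18 regulators of mitochondrial genes, 8 were lower (median 0.02, and 0.07 without the 2 arrays). Esrra, a receptor that activates subunit genes, read 5.54, 5.69 and 5.95 in IRF4 KO and 5.61, 5.43 and 5.07 in WT (change 0.36), and Nrf1 read 5.74, 5.89 and 5.61 in IRF4 KO and 5.65, 5.52 and 5.37 in WT (change 0.24). Of 12 HIF targets, 6 were lower (median -0.06, and -0.14 without the 2 arrays). The glucose transporter Slc2a1 was the 1 with an unadjusted p under 0.05, against 1.08% of all genes called lower (change -0.62, limma p 0.0467, adjusted 0.999). Lists of proteasome and cytosolic ribosome genes were added after values had been seen. Of 39 proteasome genes 30 were lower (76.9%, median -0.12, and -0.34 without the 2 arrays). Of 42 cytosolic ribosome genes 24 were (57.1%, median -0.04, and -0.20 without them).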

How the data were processed

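RNA of 6 arrays, 3 IRF4 KO and 3 WT, had been hybridised to an Affymetrix mouse array, per the labels' protocols. The values are log2 intensities that the authors deposited per probe set, made with RMA in Affymetrix Expression Console per the submitters' processing notes. Array medians were between 3.94 and 4.12. The number of arrays limits the precision, and arrays give no read depth.

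Of 45101 probe sets, 34958 have 1 gene symbol in the platform annotation, 932 have several and 9211 have none. Probe sets without a single symbol and 64 control probe sets were left out. Each of 18194 genes took its brightest probe set by the mean over all arrays. The genotypes were compared with limma (version 3.58.1, R 4.3.3; lmFit and eBayes without trend, two-sided), with Benjamini-Hochberg adjustment over all genes and a threshold of 0.05. No test was made of the list as a whole. The fit was tested on simulated data.

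Replicate numbers name arrays only. The correlation of deviations between arrays of the same number was -0.52, 0.37 and -0.62, so the numbers were not used to pair arrays. The labels call the samples biological replicates, and pairwise correlations of 0.951 to 0.990 gave no sign of an array deposited more than once.

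The members, lists and alternatives were chosen with earlier results of these data known. Values in every array are given for the 3 genes with the smallest p in each complex, all complex II genes, the complex IV isoforms, genes with the widest range or without overlap, and for other lists up to 3 genes by smallest p. Other genes named were chosen after their values were seen. Promoter windows came from RefSeq. Alternatives were other probe set choices, normalizations, limma settings, arrays left out and blocks.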

Additional observations from a re-analysis of the deposited data

How the results depend on the processing

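The median change of the 79 genes (-0.25) was below 0 under all 17 alternatives, from -0.44 without WT 3 and IRF4 KO 1 to -0.11 without WT replicate 2, and so were the medians of complexes I, III, IV and V, while that of complex II ran from -0.17 to 0.10. No gene passed adjustment under any, with a smallest adjusted p of 0.0583 for Cox7c with array weights, a fit that stopped before its tolerance was reached. Without WT 3 and IRF4 KO 1 the medians of complexes I to V were -0.54, -0.10, -0.40, -0.27 and -0.40, each over 1.5 times the value with 6 arrays. The count at an unadjusted p under 0.05 (2) was 48 with array weights, 17 without WT 3 and IRF4 KO 1, 6 with the spike-in block, 1 with quantile normalization, 1 with the beta-actin covariate, and 0 with dim genes left out or plain _at probe sets. Shares of all genes for this count are given above, except for quantile normalization, dim genes left out and single arrays left out other than WT 3. The count without overlap (1, lower) was 54 without WT 3 and IRF4 KO 1 (53 lower and 1 higher, against 15.7% and 14.1% of all genes), 3 with the mean of all probe sets (all lower, against 3.17%), 3 with quantile normalization (1 lower and 2 higher, against 3.64% and 3.7%), 3 with array median subtraction (2 lower and 1 higher, against 4.07% and 2.43%), and 0 with dim genes left out or plain _at probe sets, which exclude Cox7c's brightest probe set. Leaving out 1 array at a time, these counts were 1 to 22 and 3 to 47, both highest without WT replicate 3, where all 47 were lower. In these fits 6.36% to 10.2% of all genes lay wholly below WT and 4.38% to 10% wholly above. With any array but WT 3 left out, 1.27% to 7.59% of the subunit genes lay wholly below WT. Without WT replicate 2, 1 was lower and 3 higher, against 6.93% and 5.19% of all genes. The cause was not tested. The probe set type and the beta-actin covariate were added after seeing the data.

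The replicate numbers do not pair the arrays. With the replicate number as a block, 2 genes had an unadjusted p under 0.05, both lower, and the median change was -0.25. Of all genes, 0.539% were called lower in that fit and 0.165% higher. Of 450 values tried for 27 named genes, 34 changed sign, in 12 genes with main changes of at most 0.40 in size.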
